A study of Mus musculus with 24 samples.

Results

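A set of 10 genes that encode the enzymes which hydroxylate and cross-link collagen were followed in mouse embryonic fibroblasts labelled as controls or as knockouts of Vhl, Rassf1a or both. They are the catalytic alpha subunits of collagen prolyl 4-hydroxylase (P4ha1, P4ha2 and P4ha3), the lysyl hydroxylases (Plod1, Plod2 and Plod3) and the lysyl oxidases Lox, Loxl1, Loxl2 and Loxl3. The members were chosen by symbol, with earlier results of these data known, so their counts beside the shares of all genes are description only. All 10 were found among the 45706 gene IDs of the count table and passed the filter on low counts, as did 16573 genes in all. The table holds 24 libraries in 8 groups of 3. Fibroblasts came from embryos of stage E13.5 and were of 4 kinds, named WT, Vhl, Rassf1a and Vhl/Rassf1a, each with a GFP group labelled as control and a Cre group labelled as knockout. The WT Cre group carries the knockout label too, although no altered gene is named for it, and it serves here as the control for Cre itself. The labels do not say how Cre or GFP was delivered, which exons were altered, or whether the libraries of a group came from separate embryos or cultures, so the p-values may measure only technical spread.

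Collagen chains are modified in the endoplasmic reticulum before they fold. Prolyl 4-hydroxylases make the hydroxyproline that keeps the triple helix stable at body temperature, and lysyl hydroxylases make the hydroxylysine that carries sugars and forms stable cross-links. Outside the cell, copper-dependent lysyl oxidases turn lysine and hydroxylysine side chains into aldehydes that join collagen and elastin molecules to one another. The hydroxylases need oxygen, iron and 2-oxoglutarate. Several of these genes are known targets of hypoxia-inducible factor (HIF), the transcription factor whose alpha subunits the Vhl protein marks for breakdown.

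Library totals ran from 29934173 to 55849586 counts, and levels below are in CPM, counts of a gene scaled to one common library size with TMM factors. Vhl itself was at 25.7, 27.6 and 26.8 CPM in the Vhl GFP libraries and at 2.54, 2.34 and 2.85 CPM in the Vhl Cre libraries. Its level in Vhl/Rassf1a cells was 20.8, 21.3 and 23.8 CPM with GFP, and with Cre 1.81, 2.70 and 1.77 CPM. Rassf1, counted over all forms of the gene, was at 31.2, 26.7 and 25.8 CPM in Rassf1a GFP and 27.1, 27.5 and 25.2 CPM in Rassf1a Cre (log2 -0.066, adjusted p = 0.998 in edgeR's quasi-likelihood test). It was at 30.1, 37.2 and 30.6 CPM in Vhl/Rassf1a GFP and 42.8, 45.7 and 46.9 CPM in Vhl/Rassf1a Cre, a rise of 0.47 on the log2 scale (adjusted p = 0.000281), and it rose by 0.72 in Vhl cells (adjusted p = 9.51e-07). So Rassf1 was not called lower where Rassf1a is labelled as knocked out, and a count over all forms does not check that label. All 8 fibroblast markers looked at were tested genes, and their summed level was 23920 to 35670 CPM, against 2.33 to 4.33 CPM for 6 macrophage and 5.55 to 14.5 CPM for 6 endothelial markers. The series' design note speaks of kidney proximal tubule cells. Of 6 markers of those cells, Slc34a1 and Slc22a6 both had no count in any library of 3 groups (Vhl GFP, Rassf1a Cre and Vhl/Rassf1a GFP). The summed level of 187.1 to 367.3 CPM came mostly from Aqp1. Of the 3 tested, Lrp2 and Cubn rose and Aqp1 fell with Cre in both Vhl and Vhl/Rassf1a cells. The log2 changes of Lrp2 were 1.85 and 0.80, those of Cubn 0.47 and 0.32, and those of Aqp1 -0.27 and -0.38. Of all genes, 17.4% rose and 18.7% fell with Cre in Vhl cells, and 14.9% and 14.8% in Vhl/Rassf1a cells. Of 6 epithelial markers 5 were tested, of which 5 rose with Cre in Vhl and 3 in Vhl/Rassf1a cells. Their sum, mostly Krt19 with Epcam and Cdh1 near 0, was at 37.7 to 38.8 CPM in Vhl GFP against 126.2 to 146.3 CPM in Vhl Cre. For Vhl/Rassf1a it was 75.4 to 97.0 CPM with GFP against 193.6 to 200.9 CPM with Cre. Skeletal muscle markers, of which Myod1, Myog and Myh3 were too low to be tested and Acta1 gave most of the sum, were at 134.2 to 151.9, 377.0 to 454.9, 192.8 to 243.1 and 462.5 to 485.7 CPM in the same groups. The endothelial sum went from 5.55 to 6.75 CPM in Vhl GFP to 11.9 to 13.1 CPM in Vhl Cre (3 of 5 tested rose). With Vhl/Rassf1a it went from 11.6 to 12.4 CPM to 12.9 to 14.5 CPM (2 of 5 rose). Fibroblast markers summed to 31110 to 32790 CPM in Vhl GFP and 24320 to 26990 CPM in Vhl Cre (4 of 8 fell). With Vhl/Rassf1a the fibroblast sums were 24240 to 31660 CPM with GFP and 24850 to 26670 CPM with Cre (1 rose and 1 fell). Cartilage markers were at 639.4 to 782.1 CPM in Vhl GFP and 508.5 to 613.9 CPM in Vhl Cre (1 of 4 tested fell). For Vhl/Rassf1a they were at 325.0 to 487.4 CPM with GFP and 358.8 to 384.6 CPM with Cre (1 fell, Acan at log2 -1.29). The cartilage counts, and the fibroblast counts in Vhl/Rassf1a cells, lie near the shares of all genes. In WT GFP the endothelial, epithelial and muscle sums were 11.7 to 12.8, 75.9 to 94.4 and 215.1 to 270.4 CPM, all above Vhl GFP. The fibroblast and cartilage sums there were 23920 to 27010 and 299.3 to 390.1 CPM, both below Vhl GFP. The part of these lists in the Cre effects given below was not tested. In such bulk RNA, fewer cells of a type and less RNA per cell cannot be told apart.

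Among the GFP libraries, replicate 1 of Rassf1a and replicate 2 of Vhl/Rassf1a lay away from their own groups. How far a gene deviated there from its group mean went with transcript GC content, with correlations across genes of 0.547 and 0.615, against -0.243 to 0.273 in libraries of the 6 other groups. Plod2 and Loxl1, the members with the lowest and highest GC content, lay farthest from the other libraries there. Plod2 (43.0% GC) and Lox (43.9%) were at 0.724 and 0.765 times the mean of the other 2 libraries in Rassf1a GFP replicate 1, and at 0.711 and 0.739 times in Vhl/Rassf1a GFP replicate 2. Loxl1 (61.0% GC) was at 1.35 and 1.46 times, and Plod3 (57.8%) at 1.20 and 1.26 times. Not all members were ordered by GC content. Loxl2 (51.7%) was at 0.833 and 0.889 times, and P4ha1 (45.7%) at 0.918 and 0.971 times. Calls of members that change without these libraries are given below.

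The RefSeq promoter table of build GRCm38.p6 had an entry for 5 of the 10 members. The 250 bases before the start of 4 of them are shown here because they set members that rose with Cre in Vhl cells (P4ha1, P4ha2 and Plod1) beside one that did not pass the test (P4ha3). Capitals mark ACGTG or GCGTG on either strand, the core letters of the element that HIF binds, read as CACGT or CACGC where the match lies on the other strand. The windows are chr10:59323046-59323295 on the plus strand for P4ha1, chr11:54100674-54100923 on the plus strand for P4ha2, chr4:147936777-147937026 on the minus strand for Plod1 and chr7:100285270-100285519 on the plus strand for P4ha3. None of them overlaps an annotated exon, and that of P4ha2 lies within an intron of its longer gene model.
P4ha1: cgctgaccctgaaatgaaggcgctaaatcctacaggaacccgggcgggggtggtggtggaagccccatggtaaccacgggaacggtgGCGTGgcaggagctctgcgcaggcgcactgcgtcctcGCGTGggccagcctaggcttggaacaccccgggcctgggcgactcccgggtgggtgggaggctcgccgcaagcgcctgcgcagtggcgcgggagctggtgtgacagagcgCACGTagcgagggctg
P4ha2: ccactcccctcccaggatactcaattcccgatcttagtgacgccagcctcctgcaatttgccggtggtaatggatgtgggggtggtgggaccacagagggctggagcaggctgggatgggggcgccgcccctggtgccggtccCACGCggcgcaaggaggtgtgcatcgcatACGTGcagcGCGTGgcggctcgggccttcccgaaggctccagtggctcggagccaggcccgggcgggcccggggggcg
Plod1: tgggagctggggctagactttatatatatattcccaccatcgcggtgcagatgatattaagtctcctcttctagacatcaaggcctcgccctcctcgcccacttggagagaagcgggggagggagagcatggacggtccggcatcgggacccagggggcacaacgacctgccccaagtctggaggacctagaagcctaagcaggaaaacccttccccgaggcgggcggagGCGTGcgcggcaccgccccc
P4ha3: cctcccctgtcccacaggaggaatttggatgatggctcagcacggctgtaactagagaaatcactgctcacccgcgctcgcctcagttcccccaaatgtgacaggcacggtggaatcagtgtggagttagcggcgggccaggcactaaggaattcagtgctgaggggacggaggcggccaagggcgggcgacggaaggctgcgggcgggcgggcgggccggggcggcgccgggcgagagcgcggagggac
The P4ha1 and P4ha2 windows hold 3 matches each, Plod1 holds 1 and P4ha3 holds 0. In P4ha2 the match nearest to the start lies 69 bases before it, next to another at 78 bases. The window of Plod3, which lies partly in an exon of the neighbouring gene Znhit1, is not printed. It holds 4 matches, more than any printed window, and Plod3 did not pass the test in Vhl cells either. Of 32817 promoter windows of this length, 38.6% hold at least 1 match, 16.7% at least 2 and 6.58% at least 3. These matches describe letters only.

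**Figure D1:**
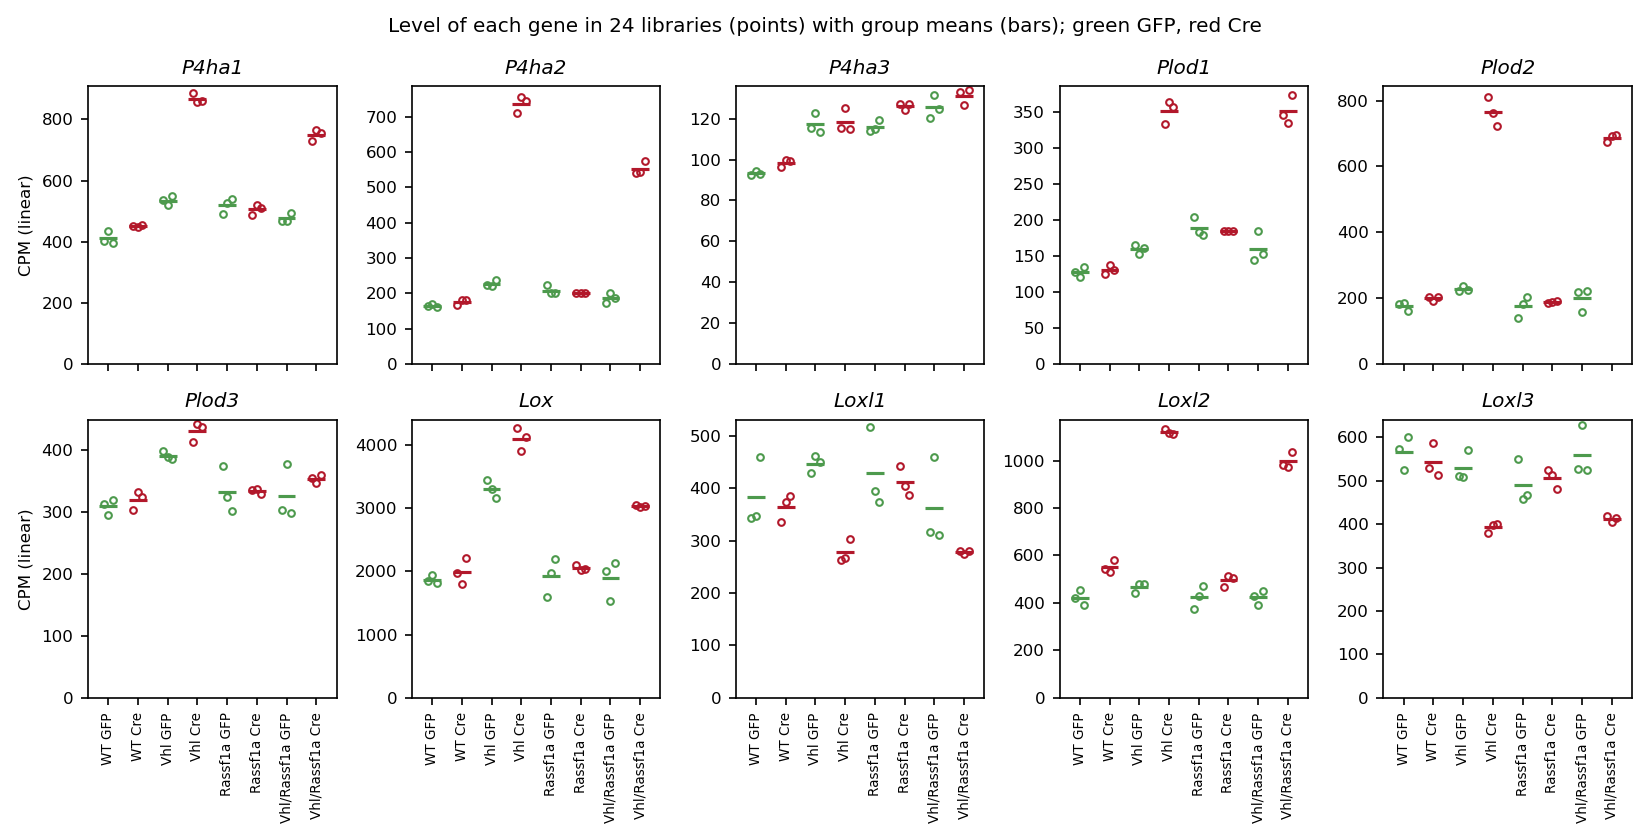
Level of each of the 10 genes in CPM on linear axes from 0, with 1 point per library, a bar at the mean of 3 libraries, GFP in green and Cre in red. P4ha1, P4ha2, Plod1, Plod2 and Loxl2 are highest in Vhl Cre and Vhl/Rassf1a Cre, and Loxl1 and Loxl3 are lowest there.

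In Vhl cells 6 of the 10 genes rose with Cre (P4ha1, P4ha2, Plod1, Plod2, Lox and Loxl2), 2 fell (Loxl1 and Loxl3), and P4ha3 and Plod3 did not pass the test. In Vhl/Rassf1a cells the counts were the same, 6 up and 2 down, with the same genes in each direction. The background is wide in these comparisons: of all genes tested, 17.4% rose and 18.7% fell with Cre in Vhl cells (36.1% called), and 14.9% rose and 14.8% fell in Vhl/Rassf1a cells (29.7% called). The median log2 fold change of the 10 genes was 0.50 in Vhl cells and 0.67 in Vhl/Rassf1a cells, against -0.011 and 0.00027 for all genes. Values of Cre and GFP libraries did not overlap for 9 of the 10 genes in Vhl cells and for 8 in Vhl/Rassf1a cells, where 52.7% and 39.1% of all genes did not overlap. A gene was called when the p-value of edgeR's quasi-likelihood test, adjusted by Benjamini-Hochberg over all genes of a comparison, was under 0.05. This holds for every adjusted p below.

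The prolyl hydroxylase subunits differed in how far they moved. P4ha2 (ENSMUSG00000018906, GRCm38 chromosome 11, 54100095 to 54131665) encodes the alpha subunit of the second isoform of the enzyme. Its level was 224, 219.8 and 238 CPM in the Vhl GFP libraries and 709, 757 and 746 CPM in the Vhl Cre libraries. With Vhl/Rassf1a it was 172, 202 and 187 CPM with GFP and 541, 544 and 574 CPM with Cre. Every Cre library of these genotypes lay far above every GFP library, a 3.24-fold rise in Vhl cells (log2 fold change 1.70, SE 0.055, adjusted p = 1.35e-16) and a 2.96-fold rise in Vhl/Rassf1a cells (1.56, SE 0.055, adjusted p = 6.63e-16). The other 4 groups had means of 164.5 to 207.7 CPM. In the order of the 8 groups Vhl Cre came first and Vhl/Rassf1a Cre second, without overlap between them, and each of the other 6 overlapped with its neighbour in the order.

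P4ha1 (ENSMUSG00000019916, chromosome 10, 59323296 to 59373304), the alpha subunit of the main isoform in most tissues, moved in the same direction but less. It was at 535, 519 and 550.3 CPM in Vhl GFP and at 885, 857 and 859 CPM in Vhl Cre. The Vhl/Rassf1a libraries had 468, 467 and 494 CPM with GFP and 729, 764 and 755 CPM with Cre. These are rises of 1.62-fold (log2 0.70, SE 0.044, adjusted p = 2.11e-11) and 1.57-fold (0.65, SE 0.044, adjusted p = 1.05e-10). The groups again did not overlap. P4ha3 (ENSMUSG00000051048, chromosome 7, 100285520 to 100319699), the third alpha subunit, had means of 93.2 to 131.3 CPM in the 8 groups. It was at 115, 123 and 114 CPM in Vhl GFP and at 115, 125 and 115 CPM in Vhl Cre, a log2 difference of 0.016 (SE 0.045, adjusted p = 0.823), and at 0.065 (SE 0.045, adjusted p = 0.304) in Vhl/Rassf1a cells. Its ordering followed the line more than Cre: both WT groups lay below all other groups without overlap, and each of the remaining 6 overlapped with its neighbour.

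Among lysyl hydroxylases, Plod2 had the widest change. Its enzyme hydroxylates lysines in the telopeptides, the short ends of collagen chains where cross-links form. Plod2 (ENSMUSG00000032374, chromosome 9, 92542223 to 92608428) was at 221, 238 and 225 CPM in Vhl GFP and at 811, 761 and 724 CPM in Vhl Cre. Levels in Vhl/Rassf1a cells were 218, 156 and 222 CPM with GFP and 674, 693 and 695 CPM with Cre. All Cre libraries of both genotypes stood far above their GFP libraries, with rises of 3.36-fold (log2 1.75, SE 0.11, adjusted p = 1.96e-11) and 3.46-fold (1.79, SE 0.11, adjusted p = 2.01e-11). The low value of 156 CPM belongs to the Vhl/Rassf1a GFP library that stands apart. Plod2 shares 346 exonic bases with the opposite-strand gene Gm38391, and since the strand setting of the counting is not given in the sources used here, reads of this pair cannot be told apart.

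Plod1 (ENSMUSG00000019055, chromosome 4, 147909753 to 147936767), which hydroxylates lysines of the helical part, was at 165, 153 and 161 CPM in Vhl GFP and at 333, 364 and 357 CPM in Vhl Cre. It was at 144, 184 and 152 CPM in Vhl/Rassf1a GFP and at 346, 334 and 374 CPM with Cre there. The rises were 2.20-fold (log2 1.14, SE 0.073, adjusted p = 2.63e-11) and 2.19-fold (1.13, SE 0.073, adjusted p = 4.38e-11), and the means of both Cre groups were 351.4 CPM. Plod3 (ENSMUSG00000004846, chromosome 5, 136987019 to 136996648), a hydroxylase that also attaches sugars to hydroxylysine, had 398, 389 and 385 CPM in Vhl GFP and 413, 442 and 437 CPM in Vhl Cre. These values did not overlap, yet the log2 difference of 0.14 (SE 0.074) had an adjusted p of 0.151. In a fit of only the Vhl libraries the adjusted p was 0.0106, and with GC-corrected offsets it was 0.0160. For Plod3 in Vhl/Rassf1a cells the log2 difference was 0.12 (SE 0.074, adjusted p = 0.258), and 0.24 without Vhl/Rassf1a GFP replicate 2 (adjusted p = 0.00415). Plod3 shares 529 exonic bases with Znhit1 on the opposite strand and 9 with Mir702 on its own.

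The lysyl oxidases among the members moved in both directions. Loxl2 (ENSMUSG00000034205, chromosome 14, 69609068 to 69695834), a form with scavenger receptor domains that acts on basement membrane collagen, was at 442, 482 and 481 CPM in Vhl GFP and at 1134, 1115 and 1114 CPM in Vhl Cre. Its Vhl/Rassf1a levels were 428, 390.4 and 450.1 CPM with GFP and 984, 973 and 1037 CPM with Cre. Loxl2 rose 2.40-fold (log2 1.26, SE 0.071, adjusted p = 2.80e-12) and 2.36-fold (1.24, SE 0.071, adjusted p = 5.49e-12), with no overlap of groups. It shares 301 exonic bases with Gm27177 on the opposite strand and 7 with Mir6950 on its own strand. Loxl2 was also the single member called in WT cells, where it went from 419, 455 and 390.0 CPM with GFP to 542, 532 and 582 CPM with Cre (log2 0.39, SE 0.070, adjusted p = 0.00410).

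Lox (ENSMUSG00000024529), the founding member of the family, was the most abundant of the 10 genes. The Vhl GFP libraries had 3439, 3309.5 and 3157 CPM and the Vhl Cre libraries 4261, 3912 and 4120.2 CPM. Vhl/Rassf1a libraries had 2013, 1531 and 2135 CPM with GFP and 3057, 3013 and 3036 CPM with Cre. Lox rose by 0.31 on the log2 scale in Vhl cells (SE 0.10, adjusted p = 0.0175) and by 0.68 in Vhl/Rassf1a cells (SE 0.10, adjusted p = 1.52e-05). The call in Vhl cells was lost without Vhl GFP replicate 3 (adjusted p = 0.0605) and without Vhl Cre replicate 1 (0.0629). The level in Vhl GFP was already above that of all groups outside the Vhl line, so that Vhl GFP came second in the order after Vhl Cre, ahead of Vhl/Rassf1a Cre, with no overlap between these 3 groups. The other 5 groups overlapped with their neighbours at means of 1869 to 2054 CPM.

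Loxl1 and Loxl3 fell. Loxl1 (ENSMUSG00000032334, chromosome 9, 58287738 to 58313186), which cross-links tropoelastin, was at 429, 461 and 449 CPM in Vhl GFP and at 263, 266 and 303 CPM in Vhl Cre (log2 fold change -0.69, SE 0.13, adjusted p = 0.000211). In Vhl/Rassf1a cells it was at 317, 459 and 311 CPM with GFP and at 280.2, 274 and 280.0 CPM with Cre (-0.38, SE 0.13, adjusted p = 0.0297). The highest of these GFP values comes from the library that stands apart, and without Vhl/Rassf1a GFP replicate 2 the log2 fold change was -0.18 (adjusted p = 0.262). The Vhl/Rassf1a call of Loxl1 was also lost without any 1 of the 3 Cre libraries (adjusted p = 0.0619 to 0.0789) and in a fit of only these 6 libraries (0.0962).

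Loxl3 (ENSMUSG00000000693, chromosome 6, 83034173 to 83052562), another form with scavenger receptor domains, was at 510.3, 509 and 571 CPM in Vhl GFP and at 381, 398 and 401 CPM in Vhl Cre. It was at 528, 628 and 525 CPM in Vhl/Rassf1a GFP and at 419, 405 and 413 CPM with Cre. The log2 fold changes were -0.43 (SE 0.075, adjusted p = 7.85e-05) and -0.44 (SE 0.075, adjusted p = 8.35e-05), without overlap of groups. Loxl3 shares 535 exonic bases with Htra2, a mitochondrial protease gene on the opposite strand that was looked up for this reason after its values were known. Htra2 went from 62.1 to 59.9 CPM in Vhl cells (log2 -0.054, adjusted p = 0.741), and from 96.6 to 61.0 CPM in Vhl/Rassf1a cells (-0.66, adjusted p = 3.29e-05). In WT cells Htra2 went from 88.0 to 44.2 CPM (-0.99, adjusted p = 6.46e-06) while Loxl3 was at 567 and 543 CPM (-0.061, adjusted p = 0.977).

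**Figure D2:**
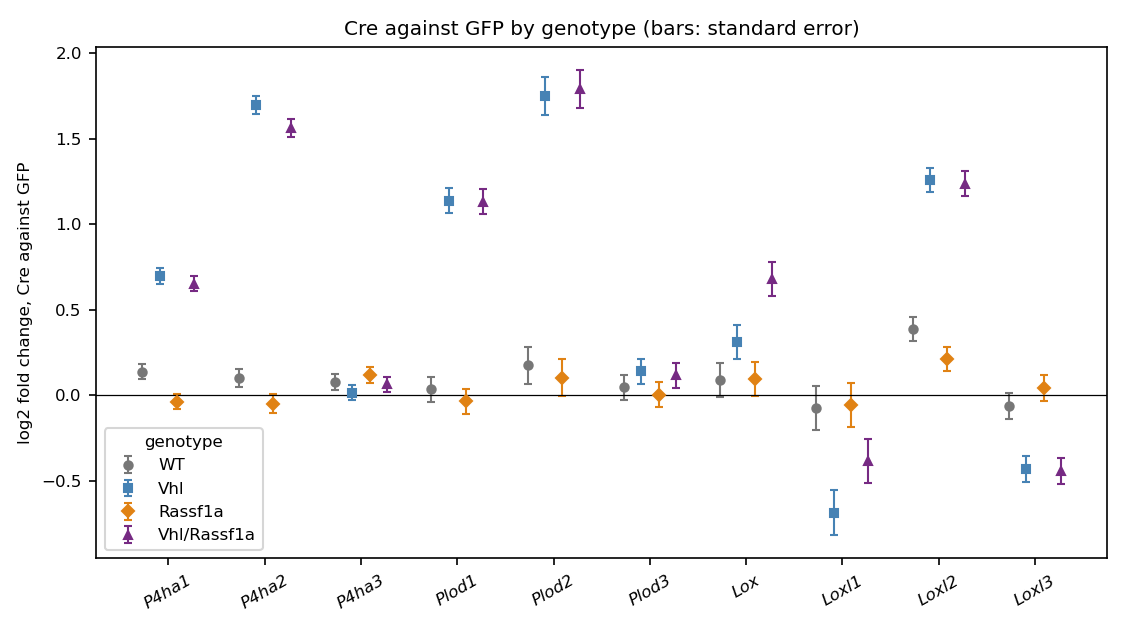
Log2 fold change of Cre against GFP for each gene in the 4 genotypes, with standard errors as bars and a line at 0. The points of Vhl and Vhl/Rassf1a cells stand near each other for all genes but Lox and Loxl1, and those of WT and Rassf1a cells stand near 0, Loxl2 in WT cells (0.39) being the farthest.

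With Cre few members were called in WT and Rassf1a cells. In WT cells 1 of the 10 genes was called, Loxl2, where 1.26% of all genes were (0.833% higher), and the log2 fold changes of the other 9 lay between -0.075 (Loxl1) and 0.18 (Plod2). In Rassf1a cells 0 of 10 were called by edgeR's quasi-likelihood test and 0 by the Wald test of DESeq2, where edgeR called 0.392% of all genes, and 2 of the 10 had an unadjusted p under 0.05. The largest difference there was again in Loxl2, from 376, 430 and 473 CPM with GFP to 469, 512 and 503 CPM with Cre (log2 0.21, SE 0.070, adjusted p = 0.356), and without a filter on low counts it was called (adjusted p = 0.0142). The smaller one was in P4ha3 (0.12, SE 0.045, adjusted p = 0.534).

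The Cre effects of the genotypes were then compared directly. Against the Cre effect in WT cells, that in Vhl cells was higher for P4ha1, P4ha2, Plod1, Plod2 and Loxl2 and lower for Loxl1 and Loxl3, 7 of 10 genes where 23.2% of all genes were called (10.7% higher and 12.5% lower). The difference was 1.60 (SE 0.077) for P4ha2, 1.57 (SE 0.15) for Plod2, 1.10 (SE 0.10) for Plod1, 0.87 (SE 0.099) for Loxl2 and 0.56 (SE 0.062) for P4ha1. For Lox it was 0.22 (SE 0.14, adjusted p = 0.308), so the rise of Lox in Vhl cells was not shown to exceed that in WT cells, although it was called without a filter on low counts (0.0179) and with GC-corrected offsets (0.0321). The calls of Loxl1 (-0.61, adjusted p = 0.0180) and Loxl3 (-0.37, adjusted p = 0.0132) were each lost without some single libraries: Loxl1 without WT GFP replicate 1 (0.0572), WT GFP replicate 2 (0.0524) or Vhl Cre replicate 2 (0.0517), and Loxl3 without WT Cre replicate 2 (0.0604) or Vhl GFP replicate 3 (0.0603).

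The same comparison for Vhl/Rassf1a cells against WT cells, which uses the same WT libraries, called 7 genes where 14.8% of all genes were called (7.41% higher and 7.4% lower). Lox was among them (0.59, SE 0.14, adjusted p = 0.00570) and Loxl1 was not (-0.31, SE 0.18, adjusted p = 0.316), while P4ha2 had 1.46 and Plod2 1.61. Loxl1 was called with GC-corrected offsets (adjusted p = 0.00044) and without a filter on low counts (0.00482), and Loxl3 (-0.38, adjusted p = 0.0164) was lost without WT GFP replicate 2 (0.0531) or WT Cre replicate 2 (0.0569). Without both libraries that lay away from their groups, Plod3 was called too (0.20, adjusted p = 0.0164). Against the Cre effect in Rassf1a cells, the Vhl/Rassf1a effect was higher for 6 genes and lower for Loxl3 (-0.48, adjusted p = 0.00266), where 15% of all genes were called (7.95% higher and 7.1% lower). The differences there were 1.69 for Plod2, 1.61 for P4ha2, 1.17 for Plod1, 1.02 for Loxl2, 0.69 for P4ha1 and 0.59 for Lox. Loxl1 was at -0.33 (adjusted p = 0.286) and was called lower with GC-corrected offsets (-0.40, adjusted p = 0.00011) and without a filter on low counts (-0.36, adjusted p = 0.000514). Between Rassf1a and WT cells the Cre effect differed for 0 of the 10 genes by edgeR and 0 by DESeq2, where edgeR called 0.00603% of all genes, and 1 had an unadjusted p under 0.05.

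Whether the response differed between cells labelled Vhl/Rassf1a and Vhl was asked by the difference between the Vhl/Rassf1a and the Vhl effect. None of the 10 genes was called by edgeR, 0 by DESeq2, and 1 had an unadjusted p under 0.05, where 6.09% of all genes were called (3.44% higher and 2.65% lower). For Plod1 the difference was -0.0069 on the log2 scale with an unadjusted 95% interval of -0.22 to 0.21, for Loxl2 it was -0.022 (-0.23 to 0.18), for P4ha1 -0.045 (-0.17 to 0.085) and for P4ha2 -0.13 (-0.29 to 0.023). The interval of Plod2 was wider, from -0.27 to 0.36. Lox (0.37, interval 0.076 to 0.66, adjusted p = 0.146) and Loxl1 (0.30, interval -0.080 to 0.69, adjusted p = 0.442) had the largest differences. Both were called with GC-corrected offsets (adjusted p = 0.0115 and 0.00336) and without a filter on low counts (3.83e-05 and 0.0140), and Loxl1 also without Vhl/Rassf1a GFP replicate 2 (0.51, adjusted p = 0.0413).

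**Figure D3:**
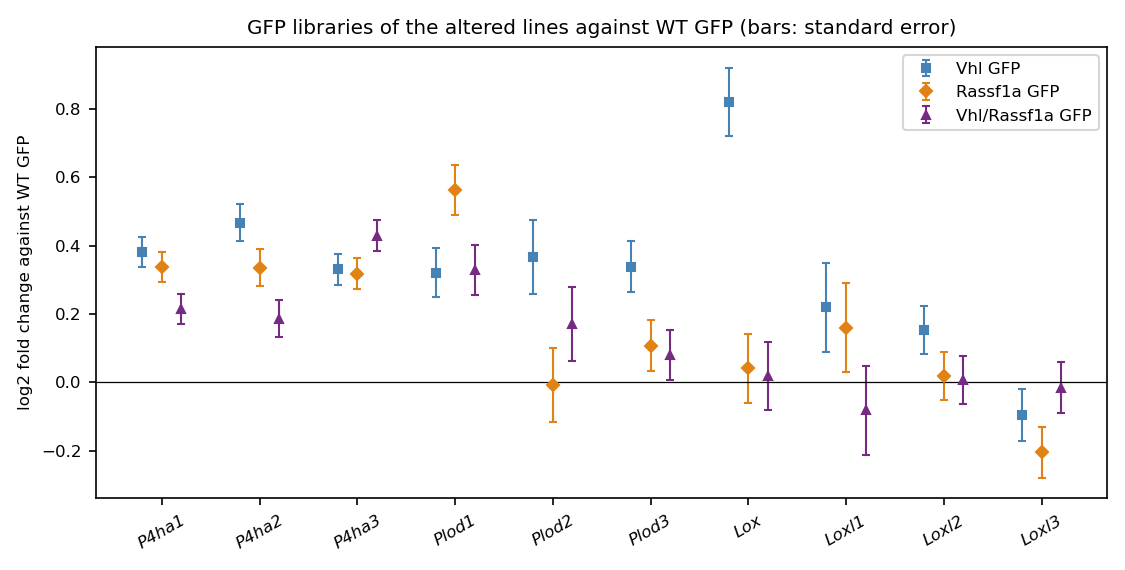
Log2 fold change of the GFP libraries of the Vhl, Rassf1a and Vhl/Rassf1a lines against WT GFP, with standard errors as bars and a line at 0. The points of P4ha1, P4ha2, P4ha3 and Plod1 lie above 0 in all 3 lines, and Lox (0.82) stands out in the Vhl line.

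The lines also differed before Cre. In Vhl GFP against WT GFP, 7 of the 10 genes were higher and 0 lower, where 32.1% of all genes were called (17.2% higher). They were the 6 hydroxylases, with log2 differences from 0.32 (Plod1) to 0.47 (P4ha2), and Lox, which had 1846, 1949 and 1812 CPM in WT GFP against 3439, 3309.5 and 3157 CPM in Vhl GFP (0.82, SE 0.10, adjusted p = 1.18e-06). Plod2 was called at 0.37 (adjusted p = 0.0114) but not without WT GFP replicate 3 (0.0611). Of the 3 genes not called, Loxl1 was called higher without that replicate (0.37, adjusted p = 0.0421) and without a filter on low counts (0.19, adjusted p = 0.0119). Loxl2 was called higher without WT GFP replicate 2 (0.21, adjusted p = 0.0427) and in a fit of only these 6 libraries (0.16, adjusted p = 0.0425), and Loxl3 lower with GC-corrected offsets (-0.16, adjusted p = 0.00684). In Rassf1a GFP and in Vhl/Rassf1a GFP the same 4 genes were higher than in WT GFP, P4ha1, P4ha2, P4ha3 and Plod1, where 16.1% and 11.5% of all genes were called (9.39% and 6.86% higher, 6.68% and 4.68% lower). Plod1 was at 128, 120.1 and 135 CPM in WT GFP and at 205, 183 and 179 CPM in Rassf1a GFP (0.56, SE 0.073, adjusted p = 5.34e-06), and P4ha3 had 0.43 (SE 0.045, adjusted p = 2.81e-07) in Vhl/Rassf1a GFP. All 3 comparisons share the WT GFP libraries. The call of P4ha2 in Vhl/Rassf1a GFP (0.19, adjusted p = 0.0266) was lost without Vhl/Rassf1a GFP replicate 2 (0.12, adjusted p = 0.163). It was also lost without 3 other single libraries. Plod2, not called with all libraries, was called higher without Vhl/Rassf1a GFP replicate 2 (0.31, adjusted p = 0.0286). Loxl1 was at -0.081 (adjusted p = 0.771) there, and at -0.29 without both libraries that lay away from their groups (adjusted p = 0.0221). In a fit of only these 6 libraries P4ha1, P4ha2 and Plod1 all lost their call (adjusted p = 0.142, 0.260 and 0.128). Loxl3 was at -0.20 in Rassf1a GFP (adjusted p = 0.0690), and at -0.30 without Rassf1a GFP replicate 1 (adjusted p = 0.00778). It was also called lower with size factors of DESeq2 (adjusted p = 0.0454) and by the Wald test of DESeq2 (0.0353). The same held without a filter on low counts (0.00110), with GC-corrected offsets (7.25e-05) and without WT GFP replicate 2 (0.0418). The GFP libraries used here also enter the Cre effects of the same lines.

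**Figure D4:**
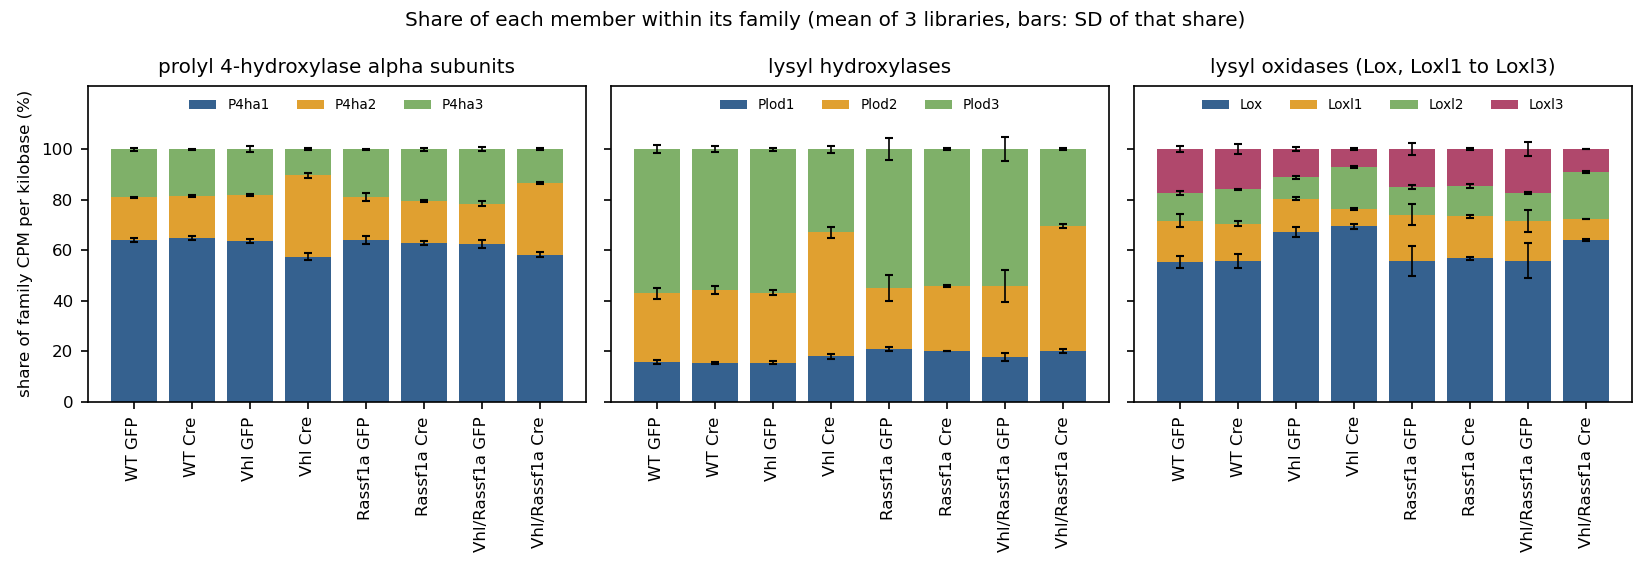
Share of each gene in the summed CPM per kilobase of the members of its family, in percent. Stacked bars show the mean of 3 libraries for the 8 groups, with the SD of each share. Loxl4 is not a member and is not included. P4ha2, Plod2 and Loxl2 take larger shares in Vhl Cre and Vhl/Rassf1a Cre than in the other 6 groups.

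Levels of different genes were compared per kilobase of exon (CPM per kilobase). Averaged over the 8 groups Lox was highest at 528, followed by P4ha1 at 137, then Loxl2 at 113, Loxl1 at 112 and Loxl3 at 109, then Plod3 at 77.4, Plod2 at 60.7, P4ha2 at 49.2, P4ha3 at 36.9 and Plod1 at 30.6. These means include the Vhl Cre and Vhl/Rassf1a Cre groups, and the order in WT GFP alone was another: Lox 391, Loxl3 123, Loxl1 116, P4ha1 99.8, Loxl2 77.9, Plod3 68.4, Plod2 32.7, P4ha3 29.7, P4ha2 26.4 and Plod1 18.9. Within the prolyl hydroxylase subunits P4ha2 went from 17.9% ± 0.387 in Vhl GFP to 32.2% ± 0.970 in Vhl Cre (SD, n = 3 each), and from 16.1% ± 0.979 to 28.3% ± 0.543 in Vhl/Rassf1a cells. P4ha1 remained the largest part, at 57.5% in Vhl Cre. Plod3 made up 56.8% of the lysyl hydroxylase level in Vhl GFP and 33.0% in Vhl Cre, while Plod2 went from 27.7% ± 1.11 to 49.1% ± 2.29. For Vhl/Rassf1a cells Plod2 went from 28.0% ± 6.26 to 49.5% ± 0.898. Lox held 67.2% of the level of the 4 lysyl oxidases followed here in Vhl GFP and 69.5% in Vhl Cre. In these libraries Loxl2 went from 8.43% ± 0.514 to 16.8% ± 0.431 and Loxl1 from 13.2% ± 0.596 to 6.82% ± 0.521. Loxl4, of the same family, is not among the members and not in these shares. Its log2 fold change with Cre was 0.40 in Vhl cells (adjusted p = 3.42e-05) and 0.17 in Vhl/Rassf1a cells (adjusted p = 0.0564). The summed level of each family was higher too, going from 204 to 367 CPM per kilobase for the prolyl hydroxylase subunits, from 152 to 289 for lysyl hydroxylases and from 1028 to 1235 for the 4 lysyl oxidases in Vhl cells.

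Other genes of collagen processing moved in both directions. Of 20 partners, 9 rose and 6 fell with Cre in Vhl cells (median log2 0.025, all genes -0.011), and 5 rose and 4 fell in Vhl/Rassf1a cells (median 0.10, all genes 0.00027). Over all genes 17.4% rose and 18.7% fell in Vhl cells, and 14.9% and 14.8% in Vhl/Rassf1a cells, so the counts in the latter lie near the background. P4hb, the beta subunit that P4ha proteins bind to form the active enzyme, was at 1613, 1562 and 1632 CPM in Vhl GFP and at 2077, 2137 and 2147 CPM in Vhl Cre (log2 0.40, SE 0.034, adjusted p = 2.79e-09). P4hb rose by 0.45 (SE 0.034) in Vhl/Rassf1a cells. Serpinh1, the collagen chaperone, fell by 0.37 in Vhl and by 0.36 in Vhl/Rassf1a cells (SE 0.063 each). P3h3, of the prolyl 3-hydroxylase family, rose by 0.24 and 0.48. Adamts14, a protease that removes the amino-terminal propeptide of procollagen, fell by 0.99 in Vhl and by 0.38 in Vhl/Rassf1a cells. Tll1, which can remove the carboxy-terminal one, rose by 0.63 in Vhl cells and had 0.14 (adjusted p = 0.0861) in Vhl/Rassf1a cells. Colgalt2, which puts galactose on hydroxylysine, was scarcely detected with GFP (1 to 7 counts per Vhl GFP library) and was at 2.41, 2.62 and 2.85 CPM in Vhl Cre.

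The collagen and elastin genes, whose products these enzymes modify, were counted in the same way. Of 14 genes 0 rose and 8 fell in Vhl cells (median log2 -0.42), and 0 rose and 3 fell in Vhl/Rassf1a cells (median -0.090). Against 18.7% and 14.8% of all genes that fell, the count in Vhl/Rassf1a cells lies near the background. Eln, which encodes the lysyl oxidase substrate elastin, had 115, 119 and 115 CPM in Vhl GFP and 48.5, 49.4 and 44.5 CPM in Vhl Cre (log2 -1.29, SE 0.086, adjusted p = 4.88e-11), and fell by 0.71 in Vhl/Rassf1a cells. Col6a3 and Col6a1, chains of beaded filament collagen, fell by 0.96 and 0.65 in Vhl cells and by 0.48 and 0.22 in Vhl/Rassf1a cells. Col1a2, a chain of the main fibrillar collagen, fell by 0.50 in Vhl cells and had -0.12 (adjusted p = 0.153) in Vhl/Rassf1a cells. In the Vhl line 11 of the 14 genes were higher and 0 lower with GFP than in WT GFP (median 0.39). In the Rassf1a line 11 were higher and 1 lower (median 0.41), and in the Vhl/Rassf1a line 5 were higher and 0 lower (median 0.11). Of all genes 17.2%, 9.39% and 6.86% were higher in these comparisons. With Cre in WT cells 1 of the 14 rose, where 0.833% of all genes did.

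A list of 14 known HIF-responsive genes, chosen with earlier results of these data known, was counted too. With Cre 13 rose in Vhl cells and 14 in Vhl/Rassf1a cells (medians 1.80 and 1.75), where 17.4% and 14.9% of all genes rose. In WT and Rassf1a cells 0 were called with Cre, where 1.26% and 0.392% of all genes were. With GFP against WT GFP, 4 were higher and 5 lower in the Vhl line, and 4 higher and 1 lower in the Rassf1a line. In the Vhl/Rassf1a line 0 were called. Of all genes 32.1%, 16.1% and 11.5% were called in these GFP comparisons. Egln3, an oxygen-sensing hydroxylase that marks HIF for Vhl, rose by 3.61 and 2.99, and Egln1, of the same family, by 1.90 and 1.97. Car9, a carbonic anhydrase, rose by 4.73 and 4.53, and Pgk1, a glycolytic kinase, by 1.58 and 1.52. Ddit4 was the one not called in Vhl cells (-0.065, adjusted p = 0.607). In Vhl cells the log2 increases of Plod2 (1.75) and P4ha2 (1.70) lay near the median of these 14 genes. Those of Loxl2 and Plod1, given above, and of P4ha1 (0.70) and Lox (0.31) lay below it.

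Across the 24 libraries the members fell into those that followed one another and those that ran the other way. As a description over libraries that share their groups, Pearson's r of log2 CPM was 0.977 between P4ha1 and P4ha2, 0.973 between Plod2 and Loxl2 and 0.964 between P4ha2 and Plod2. It was -0.908 between P4ha1 and Loxl3 and 0.748 between Loxl1 and Loxl3. P4ha3 followed no other member as closely, its highest value being 0.636 with Plod1. Among all genes tested, the 3 most like Plod2 were Ero1l (0.992), Bnip3 (0.991) and Bnip3l (0.989), and those most like P4ha2 were Bsg (0.993), Mxi1 (0.991) and Sema4g (0.990). The nearest to Lox were Fbxl20 (0.972), Meis2 (0.969) and Tnfsf15 (0.951), and to P4ha3 they were Igf2 (0.939), Srpx2 (0.935) and Fxyd6 (0.928).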

How the data were processed

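RNA of 24 libraries was measured. The authors deposited raw counts per Ensembl gene ID, whole numbers with no normalization. Trimmomatic 0.38, STAR 2.5.2b and the build GRCm38 are named, per the submitters' processing notes, and libraries were made with a stranded kit, per the labels' protocols. How reads were counted, on which strand and with which annotation is not given in the sources used here. Symbols, positions, exon lengths and the GC content of the longest transcript came from the GENCODE annotation of GRCm38 (release M21), which named 45143 of 45706 IDs.

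Genes were kept by filterByExpr of edgeR 4.0.16 (minimum count 10, minimum total 15). A quasi-likelihood model with 1 mean per group, TMM scaling and 16 residual degrees of freedom took in every library (R 4.3.3). The script was tested on simulated data first. The 12 comparisons were Cre against GFP in 4 genotypes, 5 differences of these effects and 3 comparisons of GFP groups with WT GFP. Two-sided p-values were adjusted over 16573 genes (Benjamini-Hochberg). Levels are CPM on TMM-scaled library sizes. The SE is the log2 fold change over the square root of F. GC-corrected offsets used a spline with 5 degrees of freedom per library. All replicate pairs differed beyond sampling noise (chi-square over degrees of freedom at least 2.78). Genes named were all members, the targeted genes, of 3 further lists the 4 with the smallest adjusted p in Vhl and in Vhl/Rassf1a cells, and the 3 genes most like a member. Other genes were named after their values were seen. Members and lists were chosen with earlier results of these data known. Alternatives were size factors of DESeq2, the Wald test of DESeq2 1.42.0, keeping every gene with at least 1 count in all, fitting the compared groups alone, a replicate block, GC-corrected offsets and libraries left out.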

Additional observations from a re-analysis of the deposited data

Results flagged for a closer look

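In each comparison below, the Cre effect of 7 of the 10 genes differed between genotypes by a test of the difference itself (edgeR's quasi-likelihood test, Benjamini-Hochberg over all genes). On the log2 scale, Vhl cells minus WT cells gave 0.56 for P4ha1, 1.60 for P4ha2, 1.10 for Plod1, 1.57 for Plod2, -0.61 for Loxl1, 0.87 for Loxl2 and -0.37 for Loxl3. Vhl/Rassf1a cells minus WT cells gave 0.515 for P4ha1, 1.46 for P4ha2, 1.10 for Plod1, 1.61 for Plod2, 0.59 for Lox, 0.85 for Loxl2 and -0.38 for Loxl3. Vhl/Rassf1a cells minus Rassf1a cells gave 0.69 for P4ha1, 1.61 for P4ha2, 1.17 for Plod1, 1.69 for Plod2, 0.59 for Lox, 1.02 for Loxl2 and -0.48 for Loxl3. Of all genes, 23.2%, 14.8% and 15% were called in these comparisons. Without certain single libraries Loxl1 and Loxl3 lost their calls in Vhl minus WT cells (adjusted p from 0.0517 to 0.0604 in edgeR's test), and Loxl3 in Vhl/Rassf1a minus WT cells (0.0531 and 0.0569). The comparisons with WT cells share the WT libraries, and those of Vhl/Rassf1a cells share the Vhl/Rassf1a libraries.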

How the results depend on the processing

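Of 1820 values of the 10 genes under the alternatives, 1760 kept their direction and side of the threshold, 25 lost their call, 35 gained one and 0 reversed. In Rassf1a cells 1 member was called without a filter on low counts, against 0. For the Vhl/Rassf1a minus the Vhl effect 2 members were called without that filter, 2 with GC-corrected offsets, 1 without both libraries that stand apart and 0 to 1 with single libraries left out, against 0. In Vhl/Rassf1a GFP against WT GFP 1 member was called with the compared groups fitted alone, against 4. The cause was not tested. Deviations from the group means in same-numbered GFP and Cre libraries had correlations across genes of -0.0916 to 0.0346. These values show no strong shared deviation, but cannot tell whether such libraries came from the same embryo or culture. With the replicate block the members called were 1, 8, 0 and 8 for the Cre effects in WT, Vhl, Rassf1a and Vhl/Rassf1a cells, as without it.

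Counts over all genes moved further. With Cre in WT cells 209 genes were called, against 537 with GC-corrected offsets and 87 to 187 with a library left out (138 up and 71 down became 249 and 288 with GC-corrected offsets, and 156 and 151 without a filter). In Rassf1a cells the count of 65 became 103 with DESeq2, 151 without a filter, 12 with the compared groups fitted alone (1 up and 11 down, against 31 and 34; 88 and 63 without a filter), 188 with GC-corrected offsets, 112 without both apart libraries and 24 to 67 with a library left out. In Vhl cells 5991 became 7204 with the compared groups fitted alone and 5089 to 5320 with a library left out. With GC-corrected offsets it became 7720 (3172 up and 4548 down, against 2884 and 3107). For Vhl minus WT 3846 became 5425 with GC-corrected offsets and 3368 to 3536 with a library left out. In Vhl/Rassf1a cells 4919 became 3008 with the compared groups fitted alone, and the split of 2466 up and 2453 down became 2552 and 4562 with GC-corrected offsets. The difference of Rassf1a and WT effects gave 1 gene, against 22 without a filter (11 up and 11 down, against 1 and 0), 2 without both apart libraries, 0 with the compared groups fitted alone and 0 to 1 with a library left out. GC-corrected offsets gave 4175 against 2454 genes for Vhl/Rassf1a minus WT (1646 up and 2529 down, against 1228 and 1226), 2166 against 1010 for Vhl/Rassf1a minus Vhl and 4419 against 2493 for Vhl/Rassf1a minus Rassf1a (1587 and 2832, against 1317 and 1176). For Vhl/Rassf1a minus Vhl fitting the compared groups alone gave 631 and leaving out both apart libraries 1856. Against WT GFP, GC-corrected offsets gave 4028 against 2664 genes in Rassf1a GFP (1689 and 2339, against 1557 and 1107), 3353 against 1913 in Vhl/Rassf1a GFP (1301 and 2052, against 1137 and 776) and a split of 2920 and 4169 against 2857 and 2462 in Vhl GFP. Fitting the compared groups alone gave 1466 and 778 in Rassf1a GFP and Vhl/Rassf1a GFP, where no filter gave splits of 1304 and 1537 and of 1046 and 1233.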
